A study of Gallus gallus with 12 samples.

Results

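The miRNAs described here are gga-miR-10a-5p, gga-miR-10b-5p and gga-miR-125b-5p (gga stands for Gallus gallus), which are 3 of the 38 mature miRNAs measured in chicken breast muscle. They were chosen by name, as every miRNA of the table whose identifier begins with miR-10a, miR-10b, miR-99, miR-100 or miR-125. No miR-99 or miR-100 was among the 38. Small RNA of the breast muscle was sequenced from 12 birds, 1 library per bird. Of these, 6 were pedigree male (PeM) broilers, a line selected for growth and feed efficiency, and 6 were Barred Plymouth Rock (BPR) chickens, an unselected breed. The labels give an age of 8 weeks for all birds and no treatment. They do not give the sex of a bird, so that the part of sex in the differences between and within breeds was not tested. The PeM birds came from a commercial breeder and the BPR birds from a university flock, so that breed and flock of origin cannot be told apart.

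The miR-10 genes lie inside the HOX clusters, the groups of transcription factor genes that give segments of the embryo their identity, and their mature miRNAs are known to act on HOX messages. In the chicken gene annotation of RefSeq (assembly GRCg7b), the nearest protein genes to MIR10A were HOXB3, HOXB4 and HOXB5. The nearest to MIR10B were HOXD3, HOXD4 and HOXD8. MiR-125 is the vertebrate relative of lin-4, the first miRNA described in the worm Caenorhabditis elegans, where it times larval development. In mammals it is made beside miR-99 or miR-100 and a let-7 miRNA, and in the mouse miR-125b is known to act on insulin-like growth factor 2 in myoblasts and regenerating muscle. The name miR-125b-5p belonged to 2 chicken genes, MIR125B2 beside MIRLET7C and MIR99A, and MIR125B-1 near MIRLET7A2, and reads of a mature miRNA do not tell which gene they came from. MiR-10a-5p and miR-10b-5p share their seed, the bases that pair with a target, and have nearly the same sequence, so that reads could be split between them depending on the mismatches allowed in alignment, which are not given in the sources used here.

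Levels are given in RPM, the reads of a miRNA scaled to the same total of reads in every bird, so that 1 read was worth 80.3 to 331 RPM. The total reads behind these values, obtained from the steps between RPM values, were 4784 to 12454 in BPR and 3021 to 9120 in PeM. Medians were 6963.5 and 4134 reads, so that PeM was the shallower group, and the part of depth in the results was not tested. These totals are a very small share of the clean reads stated for the study, and the step between them is not given in the sources used here. Every counting error and every Wilson interval (an interval for counting error) below rests on the recovered totals. All RPM values of the 3 miRNAs came out as whole reads. Muscle identity was checked with 8 muscle miRNAs, of which 4 were in the table (miR-1a-3p, miR-133a-5p, miR-133c-3p and miR-206). Together they held 349350 to 424683 RPM in BPR and 301225 to 422924 RPM in PeM, most of it miR-1a-3p. Among them miR-206 was lower in PeM (log2 fold change -0.47, exact permutation p = 0.013, limma adjusted p = 0.104), with 27121 to 36133 RPM in BPR birds and 16551 to 31908 RPM in PeM birds.

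The 3 miRNAs were all at a higher mean level in PeM than in BPR muscle. MiR-10a-5p and miR-125b-5p passed the thresholds of the study for differential expression (DE), a p below 0.05 before adjustment together with a change of more than 1.2-fold, while miR-10b-5p did not. Of all 38 miRNAs, 8 were DE (21.1%), of which 7 were higher (18.4%) and 1 lower (2.63%) in PeM, namely miR-206. The exact permutation test described below gave a p under 0.05 for the same 2 members and for 9 of the 38 (23.7%). In none of the 3 miRNAs were all PeM birds above all BPR birds, which held for 1 of the 38 (2.63%). The log2 fold changes of the 3 miRNAs took places 4, 5 and 6 of 38, counted from the highest. Their median log2 fold change was 0.62, against 0.07 for all 38 miRNAs, of which 23 (60.5%) had a log2 fold change above 0, the 3 included. Tests were made with limma on log2(RPM), a linear model that moderates the variance of each miRNA toward that of the others, and p-values were adjusted over the 38 miRNAs by the Benjamini-Hochberg method. Limma stands here in place of the t-statistic of the study, so that calls at its thresholds can differ from its own.

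**Figure D1:**
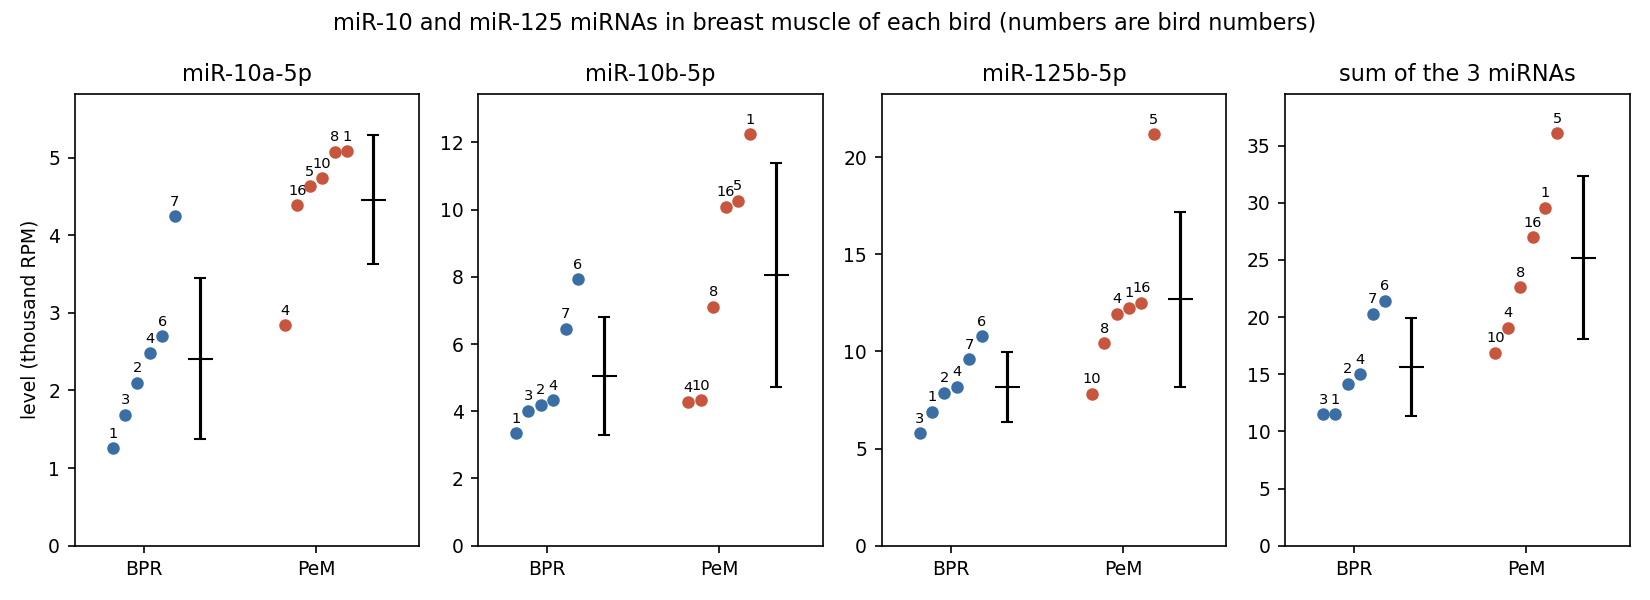
Level (in units of 1000 RPM) of miR-10a-5p, miR-10b-5p, miR-125b-5p and their sum in each BPR (blue) and PeM (red) bird, with the bird number above each point and the mean ± SD (n = 6) in black at the right of each breed. For miR-10a-5p, 5 of 6 PeM birds lay above all BPR birds, for miR-125b-5p 4, and for miR-10b-5p 3.

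The HOXB member, gga-miR-10a-5p, had the lowest level of the 3 and the largest change. In BPR the lowest bird was at 1254 RPM, the median at 2287 RPM and the highest bird at 4244 RPM. In PeM these values were 2844, 4684 and 5083 RPM. The breeds overlapped in PeM bird 4, the lowest of its breed, and in BPR bird 7, the highest of its own, and the other 5 PeM birds were above all BPR birds. BPR birds averaged 2409 ± 1040 RPM and PeM birds 4460 ± 835 RPM (SD, n = 6). The log2 fold change was 0.97 (standard error 0.26, 95% interval 0.41 to 1.52), a fold change of 1.96, with a limma adjusted p of 0.021. The exact two-sided permutation test over the 924 assignments of 6 of the 12 birds gave p = 0.00433 (0.0658 after adjustment), where 0.00216 is the smallest possible.

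The values of miR-10a-5p rested on 6 to 23 reads per BPR bird and 10 to 40 reads per PeM bird. Between PeM birds the SD was 18.7% of the mean, below the 23.0% that counting error by itself would give at these depths. The spread seen between PeM birds may therefore be too small. The standard error may be too small with it, although limma also draws on the BPR birds and the other miRNAs for that error. The recovered totals were also the smallest that fitted, so that they may be too low and the counting error too large. Which of these holds was not tested. In BPR the SD was 43.2% of the mean, against a counting error of 24.8%. PeM bird 4, with 10 reads, had a 95% Wilson interval of 1546 to 5228 RPM, which held the values of the other PeM birds. Such intervals cover counting error only, as PCR copies are not independent molecules.

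The HOXD member, gga-miR-10b-5p, was at a higher RPM level than miR-10a-5p in 11 of the 12 birds, with the limit on their reads given above. In BPR the lowest bird was at 3344 RPM, the median at 4265 RPM and the highest at 7937 RPM. In PeM the values were 4266, 8597 and 12246 RPM. PeM birds 1, 5 and 16 were above all BPR birds, birds 4 and 10 stood at the BPR median, and bird 8 lay between these. The 95% Wilson interval of PeM bird 8, 4921 to 10252 RPM, overlapped those of bird 4 (2587 to 7027 RPM) and bird 5 (7239 to 14528 RPM). Whether the PeM birds form groups was not tested. BPR birds averaged 5047 ± 1763 RPM and PeM birds 8048 ± 3339 RPM (SD, n = 6). The SD was 34.9% and 41.5% of the mean, well above the 17.1% that counting error gives in each breed with 15 to 92 reads per bird. The log2 fold change was 0.62 (standard error 0.30, 95% interval -0.02 to 1.27), with a limma unadjusted p of 0.0577 and an adjusted p of 0.244. The exact permutation test gave p = 0.0909. A difference was thus not established for miR-10b-5p, although its estimate was as large as that of miR-125b-5p.

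The lin-4 relative, gga-miR-125b-5p, was the most abundant of the 3 by mean RPM, at place 18 of the 38 miRNAs in BPR and place 12 in PeM. Its lowest, median and highest BPR birds were at 5781, 8020 and 10794 RPM. In PeM they were at 7822, 12096 and 21185 RPM. The highest bird was PeM bird 5, far above the next PeM bird at 12500 RPM, and the lowest PeM bird, bird 10, was below the BPR median. BPR birds averaged 8185 ± 1807 RPM and PeM birds 12684 ± 4514 RPM (SD, n = 6). The log2 fold change was 0.59 (standard error 0.22, 95% interval 0.11 to 1.08), a fold change of 1.51. Its limma p was 0.0191 before and 0.104 after adjustment, and the exact permutation test gave p = 0.026. MiR-125b-5p was thus DE at the thresholds of the study but not after adjustment, which 5 of the 38 miRNAs (13.2%) passed, miR-10a-5p among them. Its value in PeM bird 5 came from 64 reads, with a 95% Wilson interval of 16626 to 26961 RPM that held no other PeM bird.

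**Figure D2:**
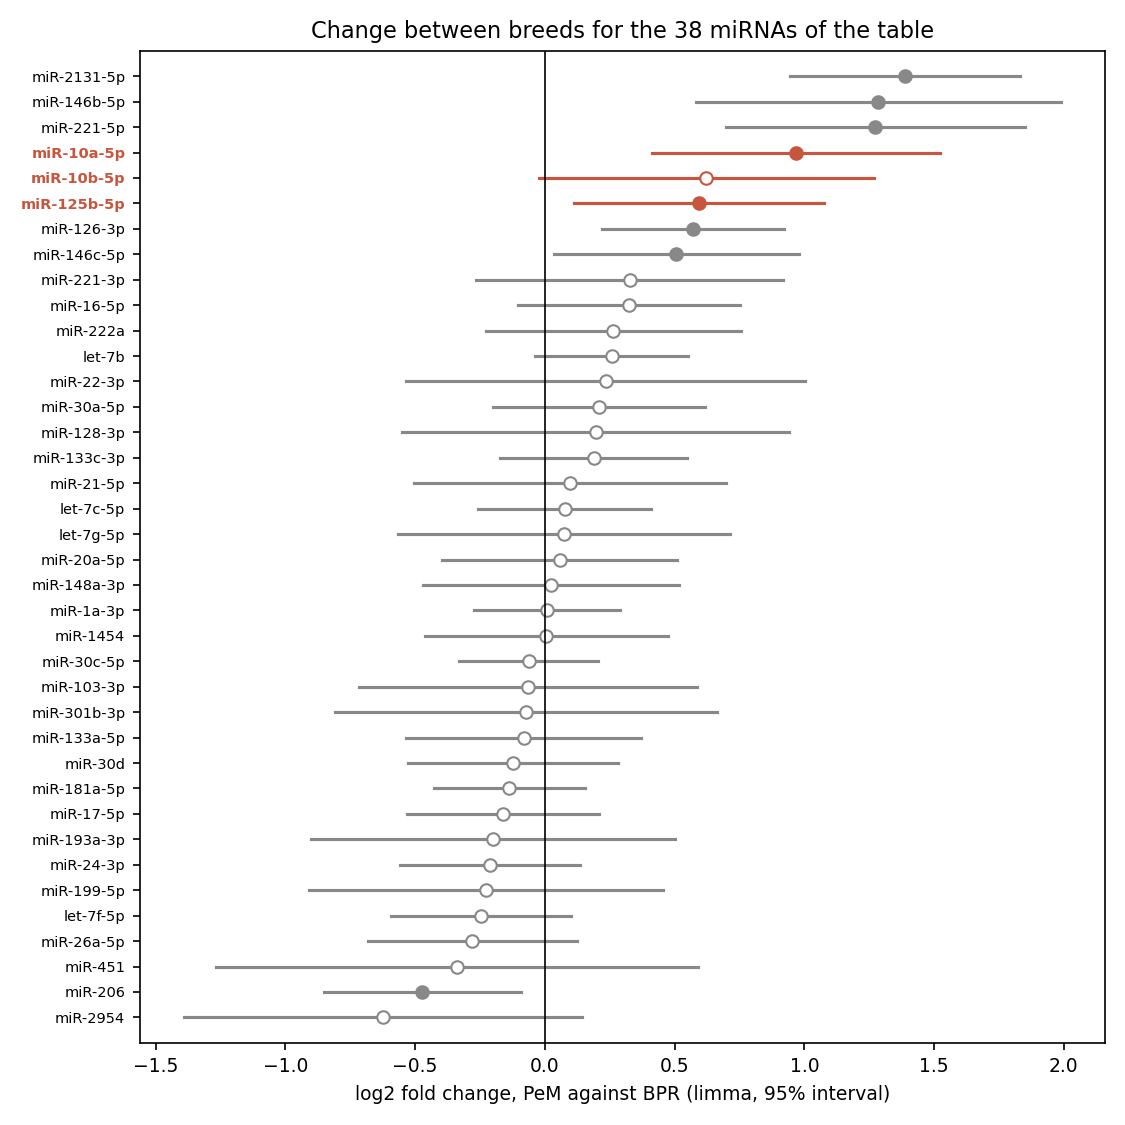
Log2 fold change of PeM against BPR from limma for the 38 miRNAs, with 95% intervals as lines. Filled points passed the thresholds of the study, and the 3 miRNAs of the miR-10 and miR-125 families are in red. They took places 4, 5 and 6 from the top, at 0.97, 0.62 and 0.59, and the interval of miR-10b-5p crossed 0.

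The sum of the 3 miRNAs was 1.56% ± 0.43 of the reads in BPR and 2.52% ± 0.71 in PeM (SD, n = 6). By bird it ran from 11482 to 21429 RPM in BPR, with a median of 14572 RPM, and from 16879 to 36081 RPM in PeM, with a median of 24781 RPM. All 6 PeM birds were above the BPR median and 4 were above every BPR bird, namely birds 1, 5, 8 and 16. The highest BPR birds, 6 and 7, were above PeM birds 4 and 10. The mean log2 of the sum was higher in PeM by 0.68, a fold change of 1.61, where the SD between birds of a breed was 0.40 on the log2 scale. The sum of miR-10a-5p and miR-10b-5p, in which any split of reads between them cancels, was higher by 0.75, a fold change of 1.69. By plan, no test was made on these sums, which are scores over the members. The miRNAs were chosen by name but with earlier results known, which holds for the tests of the single miRNAs as well.

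Within the family the order of levels was the same in both breeds: miR-125b-5p, then miR-10b-5p, then miR-10a-5p. MiR-125b-5p was above miR-10b-5p in 6 of 6 BPR birds and 5 of 6 PeM birds, and the pair was equal in PeM bird 1, at 53 reads each. MiR-10b-5p was above miR-10a-5p in 6 of 6 BPR birds and 5 of 6 PeM birds, the exception being PeM bird 10. MiR-125b-5p made up 53.0% ± 4.6 of the family sum in BPR and 50.3% ± 8.4 in PeM. MiR-10a-5p made up 31.9% ± 5.5 of the miR-10 reads in BPR and 37.4% ± 9.0 in PeM. It ranged from 25.4% to 39.7% over the BPR birds and from 29.3% to 52.3% over the PeM birds, so that the breeds overlapped.

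Whether the members changed by different amounts was examined with the log2 ratio of each pair in each bird, over 3 pairs, with p-values adjusted over all 703 pairs of miRNAs in the table. The ratio of miR-10a-5p to miR-10b-5p had a mean log2 difference of 0.35 between PeM and BPR (95% interval -0.24 to 0.95, exact permutation test, p = 0.225, adjusted p = 0.504). The ratio of miR-10a-5p to miR-125b-5p had a difference of 0.37 (95% interval -0.29 to 1.03, exact permutation test, p = 0.227, adjusted p = 0.506). For miR-10b-5p to miR-125b-5p the difference was 0.03 (95% interval -0.51 to 0.55, exact permutation test, p = 0.896, adjusted p = 0.948). Its sign turned with the bird left out, from -0.11 to 0.18. With all 12 birds the larger change of miR-10a-5p was therefore not separated from those of the others. Single birds moved these values: the first ratio had a difference of 0.17 without PeM bird 10, and the second of 0.25 without BPR bird 1 and 0.22 without PeM bird 10. Without PeM birds 4 and 5, the second had a difference of 0.71 (exact permutation test, p = 0.0286), while the first had 0.40 (exact permutation test, p = 0.243). In RPM, PeM bird 4 stood apart as low in miR-10a-5p and PeM bird 5 as high in miR-125b-5p. Leaving them out therefore raises the second ratio in PeM by the choice of birds. Its p is for that reason not a test of a difference.

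Birds that were high or low in 1 of the miRNAs were often so in another, though miR-10a-5p and miR-125b-5p had an r of -0.05 in PeM. All 3 lay on the same side of the breed mean of log2(RPM) in 9 of the 12 birds, above it in BPR birds 6 and 7 and PeM birds 1, 5 and 16, and below it in BPR birds 1, 2 and 3 and PeM bird 4. In 4 of these 9 birds, 1 or more of the deviations was under 0.05 on the log2 scale. In the others 1 deviation was larger, but the Wilson interval of that value still held the breed mean. For miR-10a-5p these were BPR birds 3 and 6 and PeM bird 5 (deviations -0.41, 0.27 and 0.08). For miR-125b-5p they were BPR birds 1 and 7 (-0.22 and 0.26). By counting error, each of the 9 birds thus has a side that is uncertain in 1 or more miRNAs. The count of birds with all 3 on the same side was not made for other sets of 3 miRNAs, so it has no background here. With the breed means removed, miR-10b-5p and miR-125b-5p had a Pearson r of 0.69 across the 12 birds (permutation of birds within breeds, p = 0.0189). On ranks taken within each breed, as for every rho over 12 birds given here, Spearman rho was 0.80 (permutation p = 0.0064). Without BPR bird 6 and PeM bird 1, whose deviations were farthest from the median in miR-10b-5p, r was 0.71 (permutation p = 0.0407). The permutation p was above 0.05 without BPR bird 6 by itself (r of 0.63, p = 0.066), without PeM bird 10 (r of 0.58, p = 0.0854) and with each bird centred on its median (r of 0.64, p = 0.0756). Within the breeds r was 0.87 in BPR (exact permutation p = 0.025, n = 6) and 0.60 in PeM (exact permutation p = 0.236, n = 6), and without the 2 birds of each breed farthest from its median it was 0.38 in both. Neither r nor rho passed adjustment over the 703 pairs (adjusted permutation p = 0.381 and 0.369), and in fact 0 pairs of the table passed it for r, while 72 pairs (10.2%) had an unadjusted permutation p under 0.05.

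MiR-10a-5p and miR-10b-5p had an r of 0.62 (permutation p = 0.0153, adjusted p = 0.381) and a rho of 0.74 (permutation p = 0.0145, adjusted p = 0.369) over 12 birds. Without BPR birds 1 and 7, r was 0.60 (permutation p = 0.0703), and it was 0.57 without BPR bird 1 (permutation p = 0.0551) and 0.52 without PeM bird 4 (permutation p = 0.0649), so that the call rested on single birds. It was 0.79 in BPR (exact permutation p = 0.05, n = 6) and 0.57 in PeM (exact permutation p = 0.208, n = 6). In BPR it was 0.72 without birds 1 and 7, and in PeM it turned to -0.45 without birds 1 and 4. MiR-10a-5p and miR-125b-5p had an r of 0.36 (permutation p = 0.21, adjusted p = 0.683) and a rho of 0.31 (permutation p = 0.363, adjusted p = 0.845). Their r was 0.75 in BPR (exact permutation p = 0.075, n = 6) and -0.05 in PeM (exact permutation p = 0.875, n = 6). Without BPR birds 1 and 7 the r over both breeds was 0.26 (permutation p = 0.453), and that within BPR was 0.95. Without PeM birds 1 and 4 the r within PeM was -0.33. The difference between the breeds in these correlations was not tested. Over all 703 pairs the median r was 0.02, and the 3 pairs took places 19, 36 and 150 from the highest. All miRNAs of a bird share 1 library and 1 total, which ties their RPM values to each other.

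**Figure D3:**
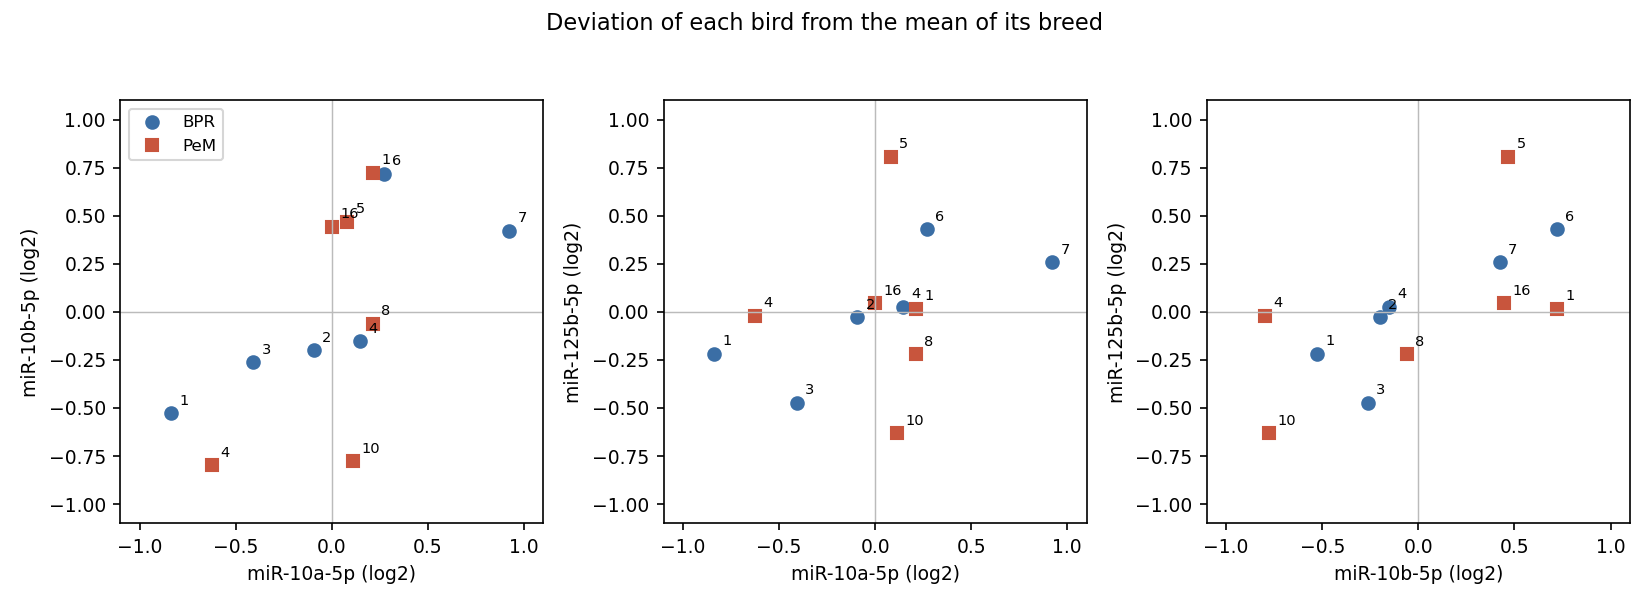
Deviation of each bird's log2(RPM) from the mean of its breed for the 3 pairs of miRNAs, with BPR as blue circles and PeM as red squares, labelled by bird number. The pair miR-10b-5p and miR-125b-5p had the highest Pearson r over 12 birds, 0.69, and miR-10a-5p and miR-125b-5p the lowest, 0.36, where the PeM birds show no common direction.

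The miRNAs whose birds followed the same pattern most closely were sought among all 38, as the 3 highest r of breed-centred log2(RPM) over 12 birds. For miR-10b-5p they were miR-125b-5p (r of 0.69), miR-30d (0.63) and miR-10a-5p (0.62). For miR-125b-5p they were miR-10b-5p (0.69), miR-301b-3p (0.68) and miR-30a-5p (0.63). For miR-10a-5p they were miR-10b-5p (0.62), miR-133c-3p (0.60, with a rho of 0.03) and miR-30d (0.51). In each case the miRNA with the highest r was another member, though by a narrow margin for miR-125b-5p and miR-10a-5p. By Spearman rho, miR-30a-5p was as close to miR-125b-5p as miR-10b-5p was, at 0.80 each. For miR-10a-5p, rho was 0.74 with miR-10b-5p, with the limit on their reads given above, and 0.63 with miR-30d. Of the named miRNAs outside the family none was DE. MiR-30d had a log2 fold change of -0.12 (limma adjusted p = 0.798), miR-301b-3p of -0.07 (0.908), miR-30a-5p of 0.21 (0.588) and miR-133c-3p of 0.19 (0.588).

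The gene of let-7c-5p lies between MIR99A and MIR125B2, and this miRNA was in the table. BPR birds averaged 15467 ± 2423 RPM of it and PeM birds 16304 ± 2529 RPM (SD, n = 6), and the log2 fold change was 0.08, with a standard error of 0.16 and an adjusted p of 0.823 in limma. The log2 ratio of miR-125b-5p to let-7c-5p was higher in PeM by 0.52 (exact permutation test, p = 0.171, adjusted p = 0.428), so that a difference in change between these neighbours was not established. Let-7 miRNAs control the timing of cell differentiation, and 4 of them were measured. None of the 4 was DE by limma or had an unadjusted limma p under 0.05. Of them 1, let-7b, had an exact permutation p under 0.05 (0.0195), at a fold change of 1.196, just under the threshold of 1.2. Their log2 fold changes ran from -0.25 to 0.26, with a median of 0.08. No miR-196, the other miRNA of the HOX clusters, was among the 38.

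MiR-126-3p, the miRNA of endothelial cells and the measured marker of 2 listed for them, was also higher in the PeM libraries. BPR birds had 33001 to 70318 RPM of it and PeM birds 68782 to 77127 RPM, and the log2 fold change was 0.57, with a standard error of 0.16 and an adjusted p of 0.0283 in limma. Relative to miR-126-3p, miR-10b-5p and miR-125b-5p differed between the breeds by 0.05 and 0.02 on the log2 scale (exact permutation test, p = 0.87 and 0.903), with a sign that turned with the bird left out. MiR-10a-5p was higher by 0.40 (exact permutation test, p = 0.173), with 0.22 without BPR bird 1 (p = 0.346) and 0.58 without BPR bird 7 (p = 0.0238), the single omission of 12 with a p under 0.05 in the exact permutation test. In bulk muscle, more cells of a type and more of a miRNA per cell cannot be told apart, and the part of endothelial cells in the changes was not tested. The marker of fibroblasts and vascular smooth muscle, miR-199-5p (1 of 5 listed), had 5139 to 11022 RPM in BPR birds and 2851 to 13572 RPM in PeM birds. Relative to it, miR-10a-5p was higher in PeM by 1.19 (exact permutation test, p = 0.013, adjusted p = 0.0961) and miR-125b-5p by 0.82 (exact permutation test, p = 0.00866, adjusted p = 0.077), and the difference for miR-10b-5p was 0.85 (exact permutation test, p = 0.0736, adjusted p = 0.246). Without PeM bird 16 these values were 0.94, 0.56 and 0.50, and that of miR-10b-5p was 1.02 without PeM bird 4 (exact permutation test, p = 0.0411). The marker of red blood cells, miR-451 (1 of 2 listed), ranged from 1292 to 14861 RPM in BPR and from 2193 to 3299 RPM in PeM, and 0 of 4 listed markers of white blood cells were in the table. The ratios to marker miRNAs were added after seeing the data. The muscle miRNA miR-1a-3p had a log2 fold change of 0.01, so that ratios to it nearly repeat the changes of the members themselves. Relative to miR-1a-3p, miR-10a-5p was higher in PeM by 0.96 (exact permutation test, p = 0.013, adjusted p = 0.0961). The differences for miR-10b-5p and miR-125b-5p were 0.61 and 0.59 (exact permutation test, p = 0.136 and 0.0628, adjusted p = 0.38 and 0.224). That of miR-125b-5p was 0.36 without PeM bird 5 (exact permutation test, p = 0.128), and its p was under 0.05 without BPR bird 6 (0.70, p = 0.0281) and without PeM bird 10 (0.73, p = 0.0195).

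Single birds bore differently on the 3 miRNAs. MiR-10a-5p was DE in all 12 fits that left out 1 bird, with log2 fold changes from 0.80 without BPR bird 1 to 1.15 without BPR bird 7. Its limma adjusted p was above 0.05 in 3 of these fits, at 0.0553 without BPR bird 3, 0.0538 without PeM bird 1 and 0.051 without PeM bird 8. MiR-125b-5p was also DE in all 12, from 0.43 without PeM bird 5 to 0.72 without PeM bird 10, where its limma adjusted p was 0.0396. MiR-10b-5p was DE in 4 of the 12, with 0.77 without BPR bird 6, 0.71 without BPR bird 7, 0.78 without PeM bird 4 and 0.78 without PeM bird 10 on the log2 scale. It was lowest, at 0.48, when PeM bird 1 was left out. PeM birds 4 and 5 were also both left out, as the birds that stood apart in the RPM of miR-10a-5p (low) and miR-125b-5p (high). MiR-125b-5p was then no longer DE (log2 fold change 0.40, limma unadjusted p = 0.0796), and its lower estimate follows from this choice. MiR-10a-5p was still DE (1.104, limma adjusted p = 0.026), with an estimate raised by the same choice. MiR-10b-5p passed the thresholds (0.70, limma unadjusted p = 0.0461).

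**Figure D4:**
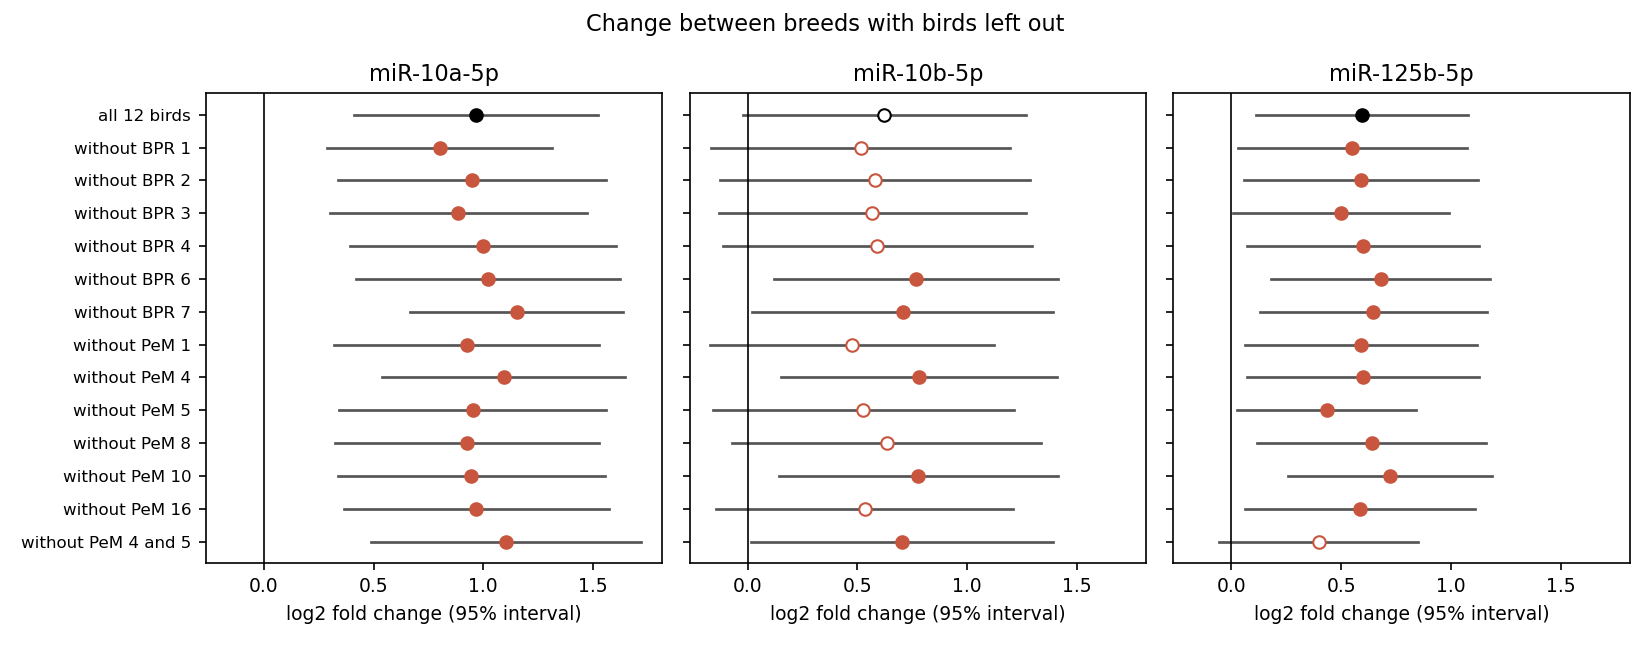
Log2 fold change of PeM against BPR from limma, with 95% intervals, for each miRNA with all 12 birds (black), with each bird left out in turn and with PeM birds 4 and 5 both left out (red). Filled points passed the thresholds of the study, which held in 12 of 12 single omissions for miR-10a-5p and miR-125b-5p and in 4 of 12 for miR-10b-5p.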

How the data were processed

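Small RNA libraries of breast muscle from 6 PeM and 6 BPR birds were compared, with breed and bird number taken from the sample titles. The authors checked reads with FastQC, trimmed adapters with bbduk, used Arraystar to align them to the mature miRNAs that miRBase lists for chicken, and deposited RPM per bird for the 38 miRNAs that averaged at least 5 reads in a breed. The submitters' processing notes name galGal5. The deposited table also holds the authors' mean RPM of each breed, log2 mean, log2 fold change and p-value of each miRNA, which were not used.

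Total reads were recovered as the smallest total from 1000 to 20000 at which most RPM values were whole reads within 0.005 (443 of 456 values, 97.1%), and served for depth and counting error only. The lowest value was 507.6 RPM, and 3 reads, the limit that a count of 0 allows, were worth 240.9 to 993 RPM. PeM and BPR were compared with limma 3.58.1 (R 4.3.3) on log2(RPM), with no pseudocount added and breed as the sole term, in place of the t-statistic of the study. Exact permutation tests covered all assignments of birds. Correlations used 100000 permutations of birds within breeds, or all pairings within a breed. Intervals of ratio differences hold the shifts that the exact test keeps. Scripts were tested on simulated birds, and ran in Python 3.11.15 with numpy 2.4.6, scipy 1.17.1 and matplotlib 3.10.9. P-values measure the spread between birds of 1 flock each.

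The miRNAs, lists, tests and alternatives were chosen with earlier results of these data known. Named were the family, the 3 miRNAs most alike to each member, neighbouring miRNA genes (names from RefSeq, GRCg7b, without coordinates) and cell type markers. Alternatives were pseudocounts of 1 and 100, centring on the median, rescaling without the 2 most abundant miRNAs, a mean of at least 2000 RPM, limma-trend, the exact test, a fold change of 1.5, a replicate block and birds left out. Ratios to marker miRNAs were added after seeing the data. The numbers 1 and 4 occur in both breeds but belong to different animals.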

Additional observations from a re-analysis of the deposited data

Results flagged for a closer look

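The 3 miRNAs, their sums and their pairwise ratios were examined in each breed for a bird far from the other 5 by Dixon's test. Such a bird was found in 2 of 16 groups. The single miRNAs and the sums were taken in RPM here, and the ratios on the log2 scale. By chance about 1 group in 20 has one, but the sums and ratios reuse the same 3 miRNAs. The 16 groups are thus not independent, and their count cannot be set against that share as a test. PeM bird 4 was low in miR-10a-5p, at 2844 RPM, with a gap to the next bird of 0.689 of the range of its breed. The same bird was also the lowest PeM bird in miR-10b-5p, at 4266 RPM, without standing apart there, and was at 11945 RPM in miR-125b-5p, close to the PeM median. PeM bird 5 was high in miR-125b-5p, at 21185 RPM, with a gap of 0.65 of the range. It was the next to highest PeM bird in miR-10b-5p, at 10262 RPM, and was at 4634 RPM in miR-10a-5p, near the PeM median. Dixon's test was not made on log2(RPM) of the single miRNAs. On that scale PeM bird 4 deviated from its breed mean by -0.62 in miR-10a-5p, with the other PeM birds from 0.002 to 0.21. PeM bird 5 deviated by 0.81 in miR-125b-5p, with the other PeM birds from -0.63 to 0.05.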

How the results depend on the processing

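MiR-10a-5p was DE under all 22 alternatives, miR-125b-5p under 21 and miR-10b-5p under 8. The alternatives reuse the same birds and some could hardly change a call, so these counts do not measure strength. For miR-10a-5p the limma unadjusted p was 0.00221 in the main fit and with a pseudocount of 1. It was 0.00209 with a pseudocount of 100 and 0.0021 with the filter of 2000 RPM. The log2 fold change of miR-10b-5p passed the thresholds after rescaling without the 2 most abundant miRNAs (0.608), with limma-trend (0.622), with the replicate block (0.925) and without PeM birds 4 and 5 (0.704), and ranged from 0.477 to 0.781 with 1 bird left out. That of miR-125b-5p was 0.398 without PeM birds 4 and 5 and 0.434 to 0.721 with 1 bird left out, and that of miR-10a-5p 0.801 to 1.153. The replicate block on birds 1 and 4 of each breed gave 1.109 for miR-10a-5p (limma adjusted p = 0.0904, where the pooled fit passed) and 0.688 for miR-125b-5p. This fit left 1 residual degree of freedom per miRNA, against 9.79 borrowed from the other miRNAs. Its p-values and calls therefore rest mostly on the borrowed variance. The deviations of same-numbered birds had an r of 0.03 and -0.17 over 38 miRNAs. Each value comes from 1 bird of each breed, so it cannot decide whether the numbers pair birds. Over all miRNAs 8 were DE, 11 with the block, 6 after centring (6 higher and 0 lower in PeM, against 7 and 1), 5 at a fold change of 1.5 and 7 to 10 with 1 bird left out. Adjusted p was under 0.05 for 5, for 3 above 2000 RPM, for 2 with the block, for 0 with the exact permutation test (9 at an unadjusted p under 0.05) and for 2 to 6 with 1 bird left out. The members DE were 2, and 2 to 3 with 1 bird left out.

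With 1 bird left out, the log2 difference of the family sum ranged from 0.570 to 0.789 and of the miR-10 sum from 0.628 to 0.903. The ratio of miR-10a-5p to miR-10b-5p ranged from 0.169 to 0.448, to miR-125b-5p from 0.225 to 0.519, and was 0.706 to miR-125b-5p without PeM birds 4 and 5 (exact permutation p = 0.0286). This p is not a test of a difference, since those birds were the ones that stood apart in these miRNAs. The ratio of miR-10b-5p to miR-125b-5p ranged from -0.115 to 0.182. To miR-126-3p, the ratio of miR-10b-5p ranged from -0.094 to 0.212 and that of miR-125b-5p from -0.116 to 0.145, and was -0.143 without PeM birds 4 and 5. The correlation of miR-10a-5p and miR-10b-5p was 0.519 to 0.750 with 1 bird left out and 0.540 without PeM birds 4 and 5 (permutation p = 0.0586). That of miR-10b-5p and miR-125b-5p was 0.583 to 0.775 with 1 bird left out, and 0.645 after centring (permutation p = 0.0756). Without PeM birds 4 and 5 it was 0.898 (permutation p = 0.00129). That of miR-10a-5p and miR-125b-5p was 0.276 to 0.483 with 1 bird left out, and 0.593 without PeM birds 4 and 5 (permutation p = 0.0867). Those birds were picked by their values in these miRNAs, so no p-value of a correlation without them is a test. The causes were not tested. A count test on recovered reads was not run, because the steps did not meet the criterion set for whole reads.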
